A study of Mus musculus with 15 samples.

Results

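Alb, Afp, Afm and Gc, the albumin family on chromosome 5, and the carriers Ttr, Trf, Rbp4 and Ambp were followed through the H3K4me3 islands of mouse liver on 5 diets. These 8 genes were listed by name, and all 8 were found among the 21755 protein-coding genes that GENCODE M21 annotates on the autosomes and X. They were chosen by family and function with the islands of these libraries already known. The measured values behind that choice are the presence, position, width and score rank of islands at their transcription start sites (TSSs) and the coverage of their gene bodies, and these are therefore given as descriptions.

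H3K4me3 was mapped by PAT-ChIP-seq, a chromatin immunoprecipitation from formalin-fixed and paraffin-embedded tissue, in whole liver of 15 C57BL/6 females (C57BL/6J in the study's methods) from 6 litters, with 3 mice per diet and 1 library per mouse. The diets began at 3 months of age and lasted 10 months, whereas the labels state 12 months of age. SD was the standard diet, CR provided 70% of the normal caloric intake as standard diet, HF was high in fat, YD held yellow corn without anthocyanins in place of the maize of the standard diet, and RD held a near-isogenic purple corn rich in anthocyanins. All mice except CR ate ad libitum, SD served as the reference of every diet, and RD against YD addressed the anthocyanins.

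Each library is represented by a list of islands, which are stretches of 200 bp windows enriched in reads and joined by the caller SICER over gaps of up to 400 bp. The lists held 7825 to 33752 islands, and 5589269 to 13978169 reads were recovered from the steps of the scores in 14 libraries. The recovered number was at most 0.000416 off a whole number in these and 0.265 off in YD_1, whose 15449854 reads are therefore less certain. An island within 1 kb of any TSS of a gene was counted as a TSS island, and 17.5% (YD_3) to 54.6% (HF_1) of all coding genes had one. By diet, this share was 32.7 to 43.1% in SD, 35.5 to 48.2% in CR, 47.6 to 54.6% in HF, 17.5 to 26.5% in YD and 27.8 to 34.7% in RD. Scores depend on the depth of a library, and each was therefore expressed as a percentile within its own list, where 100 is the highest score. Of 10 hepatocyte markers, 5 to 10 had a TSS island per library, against 0 to 5 of 7 for Kupffer cells, 0 to 7 of 7 for sinusoidal endothelium, 0 to 5 of 7 for stellate cells and 0 to 2 of 5 for cholangiocytes. Timd4 and Vsig4 of Kupffer cells, Ecm1 of stellate cells and Krt19, Epcam and Spp1 of cholangiocytes had none in any library. In whole tissue, fewer cells that carry a mark and less mark per cell cannot be told apart.

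Albumin is the main protein of plasma and binds fatty acids, hormones and drugs. Alpha-fetoprotein takes its place in the fetus and is silenced in the liver after birth, afamin binds vitamin E, and the product of Gc binds vitamin D and actin. Transthyretin carries thyroxine and, together with the retinol-binding protein encoded by Rbp4, retinol; transferrin carries iron; and Ambp encodes alpha-1-microglobulin and bikunin in a single precursor. All are secreted by hepatocytes, and H3K4me3 is a mark of the nucleosomes that flank the TSSs of active genes, most of all those rich in CpG.

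The promoters of the 4 albumin family genes are shown because these genes ranged from an island in every library to no island at all. Each line gives the 150 bases before the RefSeq TSS on the GRCm38.p6 assembly, 5′ to 3′ on the strand of the gene, in lower case. Capitals mark the letters TATAAA, the TATA box, and CCAAT, the CCAAT box, on either strand; the reverse complement of the latter reads ATTGG. The regions are chr5:90460720-90460869 (plus strand) for Alb, chr5:90490564-90490713 (plus strand) for Afp, chr5:90518799-90518948 (plus strand) for Afm and chr5:89457899-89458048 (minus strand) for Gc.
Alb: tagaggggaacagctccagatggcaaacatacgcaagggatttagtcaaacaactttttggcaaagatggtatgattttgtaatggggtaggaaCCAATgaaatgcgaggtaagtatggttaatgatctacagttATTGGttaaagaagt
Afp: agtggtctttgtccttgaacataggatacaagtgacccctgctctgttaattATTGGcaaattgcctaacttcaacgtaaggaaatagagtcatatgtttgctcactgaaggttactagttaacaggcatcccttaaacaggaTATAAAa
Afm: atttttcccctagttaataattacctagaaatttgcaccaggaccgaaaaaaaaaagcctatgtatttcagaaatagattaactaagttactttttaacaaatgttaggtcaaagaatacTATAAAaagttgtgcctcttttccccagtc
Gc: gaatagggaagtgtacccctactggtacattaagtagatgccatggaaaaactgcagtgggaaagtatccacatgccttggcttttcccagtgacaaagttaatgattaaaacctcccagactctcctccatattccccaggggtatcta

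CCAAT lay in the 300 bp windows (250 bases before to 50 after the RefSeq TSS) of all 4 genes, 56 and 15 bases upstream of the TSS in Alb, 98 in Afp, 192 in Afm and 225 in Gc, the last pair outside the stretch shown. Of 20061 coding promoters of the same length, 37.9% held it on either strand. TATAAA lay 7 bases upstream of the RefSeq TSS in Afp and 30 bases upstream in Afm, and 12.1% of the promoters held it. The main TSS from which islands are placed below is another base than the RefSeq TSS for 3 of these genes. It is 90490737 against 90490714 for Afp, 90460897 against 90460870 for Alb and 90518932 against 90518949 for Afm, so distances from it differ. These motifs did not overlap each other. GGGCGG, a box of CpG-rich promoters present in 48.0%, was not among the letters of these 4 windows. Such matches describe the sequence and are not measured binding sites. Windows were matched for 6 of the 8 genes (75%, without Ttr and Trf), so that no property was summarised over the set.

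The 8 genes fell into 3 kinds by presence. Gc, Ttr, Trf and Rbp4 had a TSS island in 15 of 15 libraries and Ambp in 14, without YD_3. Afm had one in 11 libraries and Alb in 8. Afp had none, and no island touched its gene body or the 1 kb on either side of it in any library. Over all coding genes, 9.46% had a TSS island in all 15 libraries, 40.04% in none, and the median was 3 libraries. The mean number of the 8 genes with a TSS island was 6.67 in HF, 6.33 in SD and RD, 6 in YD and 5.67 in CR, and the order of the diets changed with the choice of islands.

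**Figure D1:**
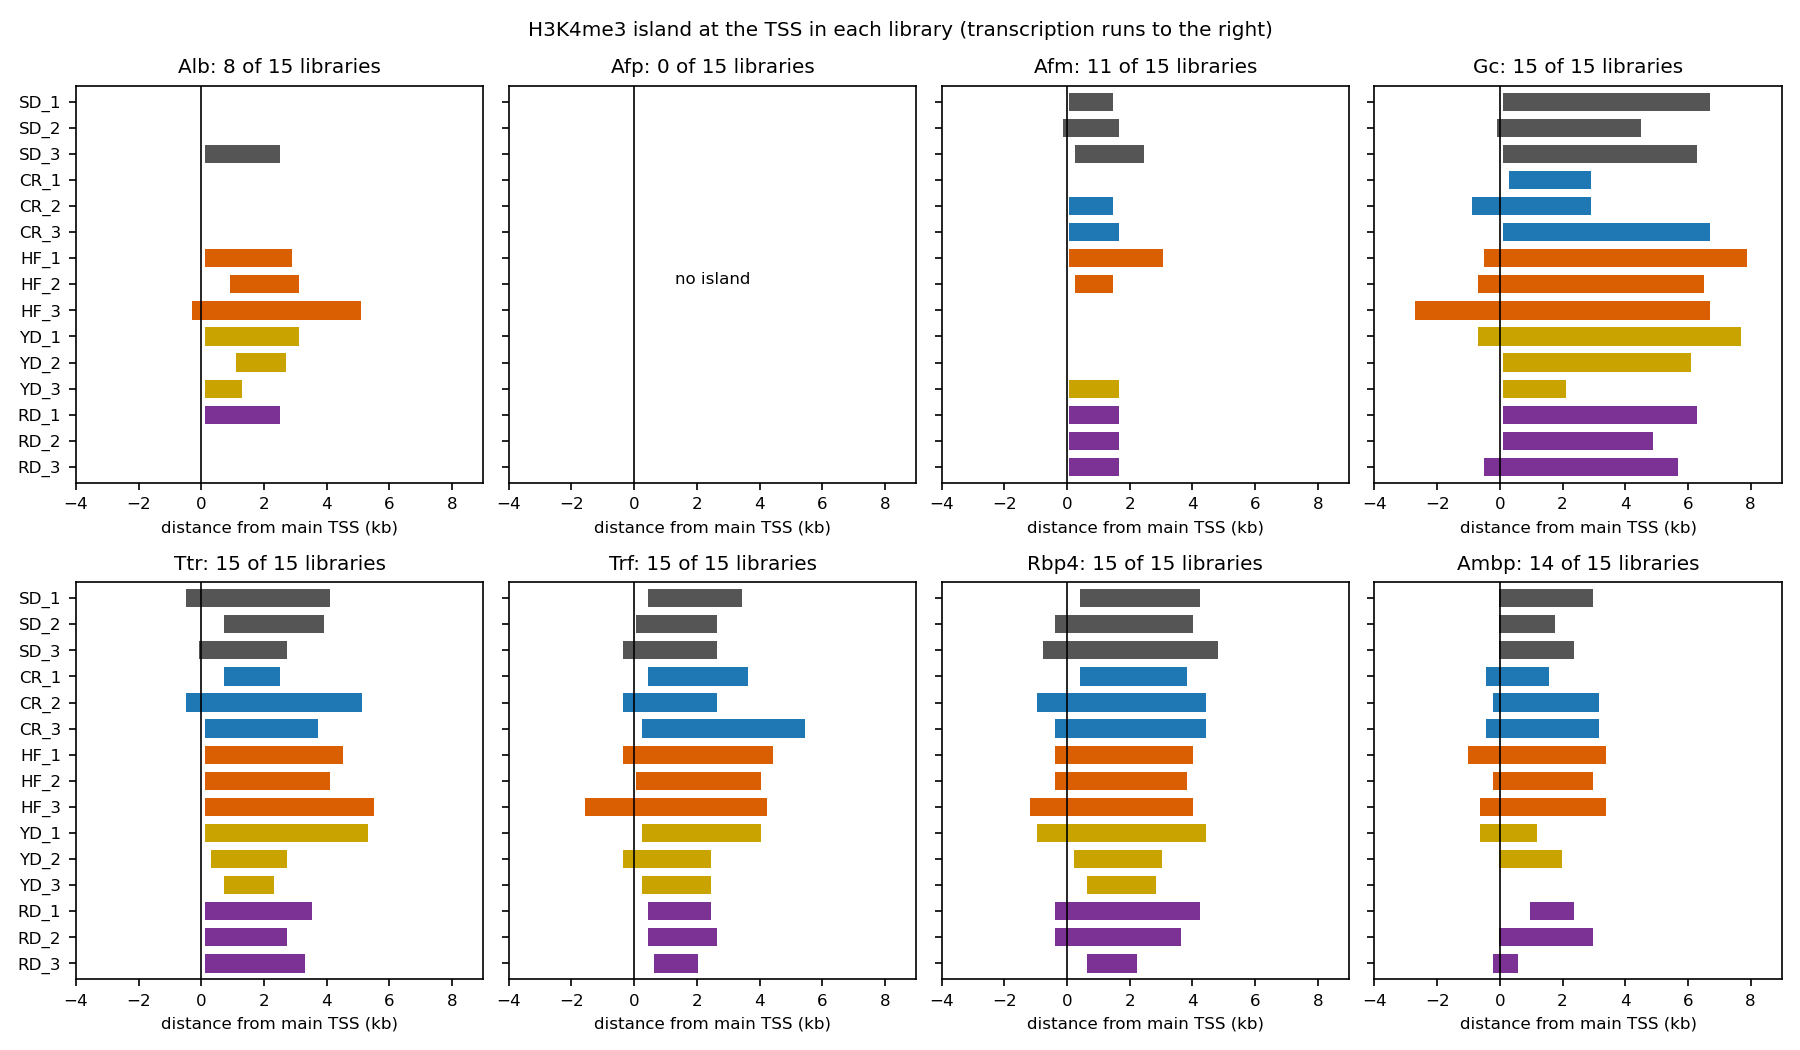
H3K4me3 islands at the TSSs of the 8 genes in each library. Bars span the best-scoring TSS island in kb from the main TSS of the gene (vertical line), with transcription to the right and libraries coloured by diet. Gc, Ttr, Trf and Rbp4 have a bar in every library, Alb in 8, Afm in 11, Ambp in 14 and Afp in none, and most bars lie downstream of the line.

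Alb, the gene of albumin itself (ENSMUSG00000029368.10, chromosome 5, 90460897 to 90476602, plus strand, 15 exons), had a TSS island in all 3 HF mice, all 3 YD mice, SD_3 and RD_1, and in none of the 3 CR mice. In HF the island ran from 104 to 2903 bp downstream of the main TSS in HF_1, from 904 to 3103 bp in HF_2 and from -296 bp (upstream) to 5103 bp in HF_3. In YD it ran from 104 to 3103 bp in YD_1, from 1104 to 2703 bp in YD_2 and from 104 to 1303 bp in YD_3. It ran from 104 to 2503 bp downstream in both SD_3 and RD_1. HF_3 was the single library in which the island reached across the main TSS. Counting every annotated TSS of Alb, the island overlapped one in 7 of the 8 libraries, all but YD_3. The stretch covered in at least 4 of the 8 libraries was 2800 bp long (chromosome 5, 90461001 to 90463800) and held exons 1 to 3, with 204 exonic bases, so that most of it was intronic. The island of YD_2 was within 1 kb of internal TSSs of noncoding transcripts of Alb and not of the main TSS, and with TSSs of protein-coding transcripts alone Alb had an island in 7 libraries. Within 3 kb of any TSS, the same 8 libraries had one as within 1 kb.

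By total score, the Alb island had a median percentile of 69.6 over its 8 libraries. Its score percentile was 71.3 in HF_1, 65.6 in HF_2 and 84.4 in HF_3, then 68.0 in YD_1, 49.4 in YD_2 and 63.1 in YD_3, with 84.4 in SD_3 and 79.995 in RD_1. Ranked by score per 200 bp window, the median over these 8 libraries was 52.9, near the middle of the lists. Islands covered 15.8, 12.4 and 30.5% of the Alb span (the gene with 1 kb on each side) in HF_1 to HF_3, and 16.9, 9.04 and 6.78% in YD_1 to YD_3. Coverage was 13.6% in SD_3 and RD_1, and 0 in SD_1, SD_2, RD_2, RD_3 and the 3 CR mice. Every HF and every YD liver was covered and every CR liver was not, whereas SD and RD each held both covered and uncovered livers.

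Among 13044 coding genes with a TSS island in at least 1 library, 1.57% had one in all 3 HF mice and no CR mouse, and 0.0230% (3 genes) in all 3 YD mice and no CR mouse. Alb and Dio1, the deiodinase that activates thyroxine in liver, were the genes with an island in all HF and all YD mice and in no CR mouse (2 genes, 0.0153%). This pattern was singled out after its values were seen and carries no test. The 8 lists with an Alb island held 7825 to 21310 islands and the 7 without it 12658 to 33752, so that the ranges overlapped. CR_3, RD_2 and SD_1, the 3 longest lists, lacked it. The part of list length in the presence of Alb was not tested.

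**Figure D2:**
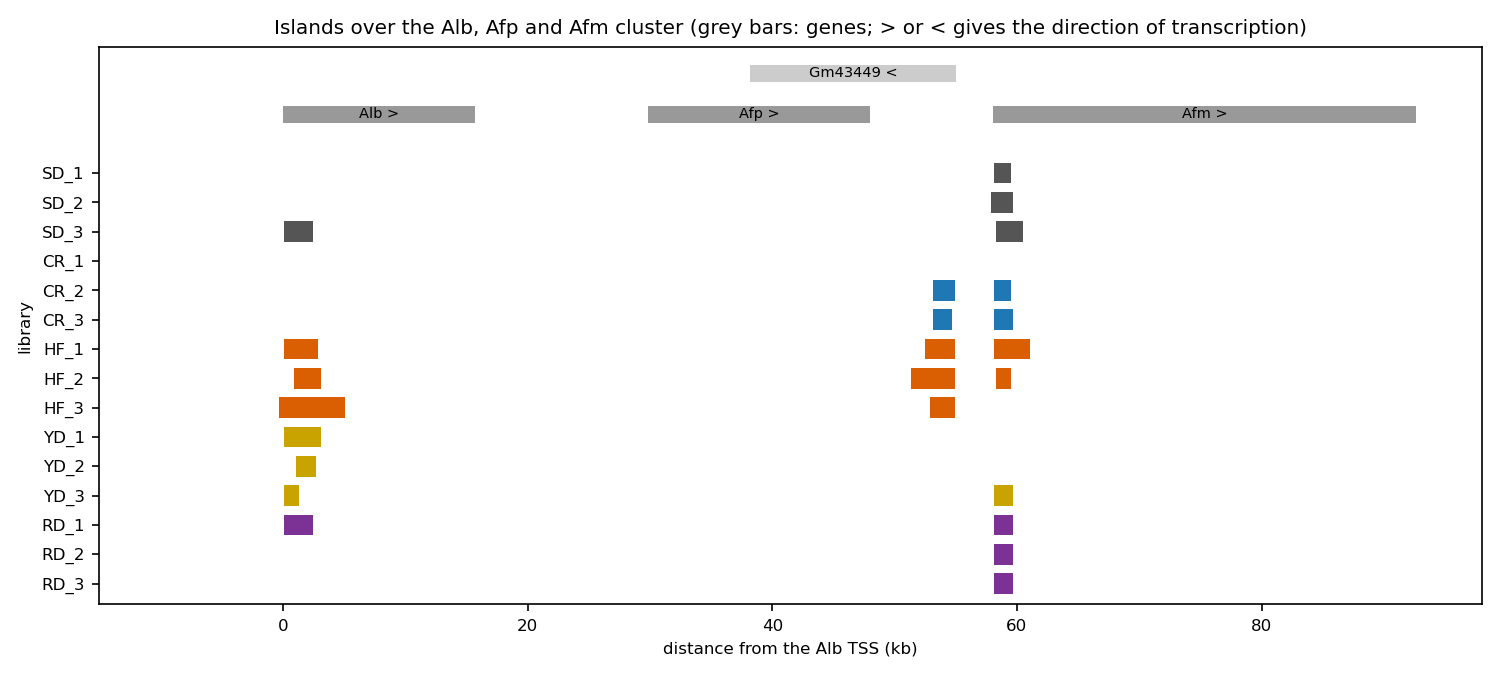
Islands over the Alb, Afp and Afm cluster in each library, in kb from the Alb TSS. Grey bars above are the genes, with the direction of transcription, and coloured bars are islands by diet. Islands sit at the 5′ end of Alb in 8 libraries, at the 5′ end of Afm in 11 and at the antisense gene Gm43449 in 5, and none touches Afp.

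Alb, Afp and Afm lie side by side in the same orientation, and the islands between them were few and placed at the gene starts. Afp (ENSMUSG00000054932.6, chromosome 5, 90490737 to 90508907, plus strand) was bare in every library. Afm (ENSMUSG00000029369.17, chromosome 5, 90518932 to 90553543, plus strand) had an island in SD_1 to SD_3, CR_2, CR_3, HF_1, HF_2, YD_3 and RD_1 to RD_3. It was absent in CR_1, HF_3, YD_1 and YD_2. The Afm island was the narrowest of the 7 genes, with a median width of 1600 bp against 2400 bp for Alb and 6200 bp for Gc, and its usual stretch, 69 to 1668 bp downstream of the TSS, held exon 1 and the start of intron 1. Its score percentile was 74.1, 60.8 and 50.8 in SD_1 to SD_3, 51.7 in CR_2, 94.2 in CR_3, 76.9 in HF_1, 38.9 in HF_2 and 73.1 in YD_3. In RD the 3 values were 8.70, 31.8 and 27.5, all below the 3 SD values, although the island had the same limits in all 3 RD mice. By score percentile, 7.63% of 11889 coding genes were lower in every RD mouse than in every SD mouse.

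Alb and Afm did not go together across livers. Both were marked in SD_3, HF_1, HF_2, YD_3 and RD_1, Alb alone in HF_3, YD_1 and YD_2, Afm alone in SD_1, SD_2, CR_2, CR_3, RD_2 and RD_3, and neither in CR_1. An additional island lay at the TSS of Gm43449, an antisense gene that starts 3.00 kb upstream of the Afm TSS and overlaps 9820 bp at the 3′ part of Afp. It was present in the 3 HF mice and in CR_2 and CR_3, in none of the other livers, with widths of 1600 to 3600 bp and percentiles of 36.3 to 64.7. Gm43449 was named after its values were seen, and the share of genes with this pattern was not computed. The nearest coding genes outside the cluster, Gm9958 on the left at 92.4 kb and 5830473C10Rik on the right at 7.56 kb, had a TSS island in 11 libraries and 1 library.

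Gc, the vitamin D-binding protein gene (ENSMUSG00000035540.12, chromosome 5, 89417522 to 89457898, minus strand, 13 exons), lies apart from the other 3 on the same chromosome and had the island with the highest median rank of the 8 genes. Its score percentile was 99.2, 98.5 and 99.1 in SD, 90.9, 96.7 and 99.7 in CR, 99.6, 99.1 and 97.9 in HF, 98.4, 98 and 85.04 in YD and 98.7, 98.1 and 98.3 in RD. The lowest value came from YD_3, the library with the smallest share of marked genes. The island was also the widest, 6200 bp at the median and 2000 to 9400 bp over the libraries. The stretch covered in at least 8 of 15 libraries lay 98 to 6297 bp downstream of the TSS (chromosome 5, 89451601 to 89457800), within exon 1 and intron 1. Per 200 bp window, the median percentile was 84.3, against 98.4 for the total score. In CR_2 and YD_3, where the TSS island was short, a further island lay in intron 1 at 3498 to 6497 bp and 3698 to 4897 bp. Apart from these, 3 more islands were found inside the spans of the 8 genes, near Ttr in SD_3, Trf in CR_2 and Rbp4 in HF_3.

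Ttr and Rbp4, whose products travel as a complex in plasma, were marked in every liver. Ttr (ENSMUSG00000061808.4, chromosome 18, 20665280 to 20674321, plus strand, 4 exons) had score percentiles of 94.7, 86.2 and 91.0 in SD, 77.5, 92.7 and 98.6 in CR, 92.3, 91.8 and 94.8 in HF, 95.5, 91.6 and 73.1 in YD and 96.9, 92.1 and 90.3 in RD. CR and YD each held a low liver, CR_1 and YD_3, and the 5 diets overlapped. Rbp4 (ENSMUSG00000024990.13, chromosome 19, 38116629 to 38125281, minus strand, 6 exons) had percentiles of 99.0, 94.7 and 98.4 in SD, 89.7, 97.4 and 99.4 in CR, 98.1, 97.0 and 95.9 in HF, 96.1, 97.3 and 95.5 in YD and 95.9, 98.4 and 91.9 in RD. Rbp4 thus stayed at 89.7 or above in all 15 lists.

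The marked stretch of Ttr, 121 to 3720 bp downstream of its TSS, held exons 1 and 2, and that of Rbp4, from -372 bp (upstream) to 4027 bp, held exons 1 to 4. Islands covered 14.5 to 50.7% of the Ttr span and 15.02 to 60.1% of the Rbp4 span, with the lowest value in YD_3 for Ttr and in RD_3 for Rbp4. Both genes are short, 9042 and 8653 bp, against 26444 bp for Trf and 40377 bp for Gc, and this raises the share of the span that an island of a given width takes. The highest coverage was in CR_2 for Ttr and in HF_3 for Rbp4.

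Trf, the gene of transferrin (ENSMUSG00000032554.15, chromosome 9, 103204001 to 103230444, minus strand, 17 exons), had a TSS island in every liver with exons 1 and 2 in its usual stretch (244 to 2643 bp downstream). Its score percentile was 84.5, 86.2 and 91.0 in SD, 85.0, 81.4 and 97.7 in CR, 76.6, 96.6 and 89.3 in HF, 92.9, 86.01 and 94.98 in YD and 96.4, 69.6 and 74.1 in RD. The rank did not separate the diets, but the coverage did in part. Islands covered 10.5, 9.14 and 10.5% of the Trf span in SD, 11.3, 15.5 and 18.3% in CR, 16.9, 14.1 and 18.4% in HF, 13.4, 9.84 and 7.73% in YD and 7.03, 7.73 and 4.92% in RD. Each CR and each HF liver lay above the 3 SD livers, each RD liver lay below them, and YD overlapped SD. Of 13201 coding genes, 5.58% were likewise higher in CR, 17.3% higher in HF and 8.36% lower in RD. CR_2 exceeded SD only with a second island, and CR overlapped SD when the same number of islands was taken from every list.

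The TSS island of Trf was 3000, 2600 and 3000 bp in SD, 3200, 3000 and 5200 bp in CR, 4800, 4000 and 5800 bp in HF, 3800, 2800 and 2200 bp in YD and 2000, 2200 and 1400 bp wide in RD. The coverage of CR_2 also held a second island of 1400 bp, 3244 to 4643 bp from the TSS. Past the 3′ end of Trf and outside its span lay an island at the TSS of the next gene, Srprb. It was present in the 3 SD, the 3 HF and 2 of 3 CR mice and in none of the 6 YD and RD mice. Srprb was named after its values were seen, and the share of coding genes with this pattern was not computed. The share of coding genes with any TSS island was 17.5 to 26.5% in YD and 27.8 to 34.7% in RD, beside 32.7 to 43.1% in SD, 35.5 to 48.2% in CR and 47.6 to 54.6% in HF. The gene model Gm20425, which reads from Trf into Srprb, shares the TSS island of Trf and cannot be told apart from it here.

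Ambp, the precursor of alpha-1-microglobulin and bikunin (ENSMUSG00000028356.4, chromosome 4, 63143275 to 63154799, minus strand, 10 exons), was the gene whose rank varied most with diet among the 5 marked in 14 or more livers. Its score percentile was 87.7, 76.1 and 80.2 in SD, 77.9, 97.4 and 99.3 in CR, 90.2, 89.9 and 93.2 in HF, 22.2 and 60.6 in YD_1 and YD_2 with no island in YD_3, and 38.3, 81.3 and 33.7 in RD. All HF mice lay above the 3 SD mice, as for 15.2% of 11889 coding genes, and all YD mice lay below them, as for 21.8%, while RD and CR overlapped SD. Islands covered 22.2, 13.3 and 17.7% of its span in SD, 14.8, 25.1 and 26.6% in CR, 32.5, 23.7 and 29.6% in HF, 13.3, 14.8 and 0% in YD and 10.4, 22.2 and 5.91% in RD. In RD_1 the island began 973 bp downstream of the main TSS, and in RD_3 it was 800 bp wide, the narrowest TSS island of the 8 genes in any library.

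**Figure D3:**
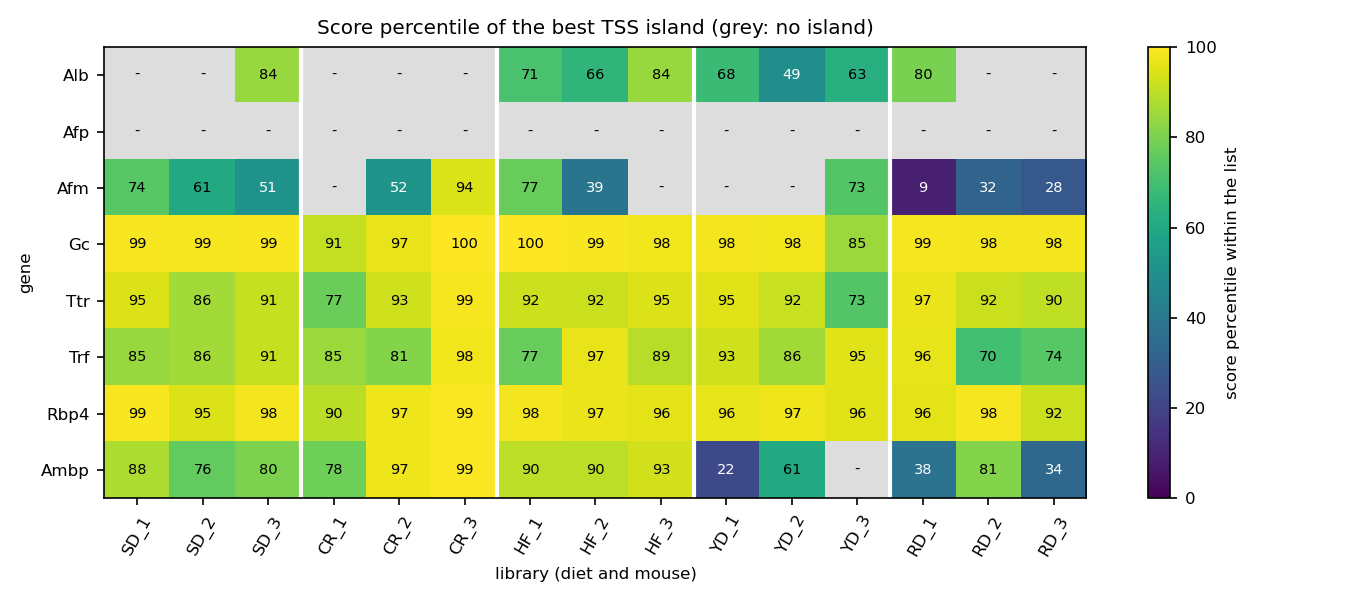
Score percentile of the best TSS island of each gene (vertical) in each library (horizontal, by diet), from 0 to 100 within the list of that library; grey cells with a dash have no island. Gc and Rbp4 are at 85.04 or above in every column, Ambp drops to 22.2 to 60.6 or no island in YD, and Alb is grey in all 3 CR columns.

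The islands lay mostly on the transcribed side of the TSS. Of the 93 TSS islands of these genes, 53 began downstream of the main TSS and 40 at or upstream of it. Those that began downstream were 7 of 8 for Alb, 10 of 11 for Afm, 8 of 15 for Gc, 12 of 15 for Ttr, 10 of 15 for Trf, 5 of 15 for Rbp4 and 1 of 14 for Ambp. Within 5 kb of the main TSS, the mean share of covered bases on the downstream side was 99.3% for Alb, 98.6% for Ttr, 95.5% for Trf, 93.5% for Gc, 91.9% for Rbp4, 88.9% for Ambp and 80.7% for Afm. Every island in this window counts, not only the TSS island of the gene. For Afm the upstream side held the Gm43449 island in CR_2, CR_3, HF_1 and HF_2, which lowers its share. The median over 12569 coding genes was 75.4%. Of these genes, 7.04% had a share at or above that of Alb, 7.95% that of Ttr and 12.7% that of Trf. For Gc, Rbp4, Ambp and Afm it was 16.2, 19.3, 25.1 and 41.1% of the genes. When an island had to overlap any annotated TSS of the gene, Gc and Alb kept 7 libraries each, Ttr 3 and Afm 1. Under the same rule Trf kept 15, Ambp 13 and Rbp4 10.

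**Figure D4:**
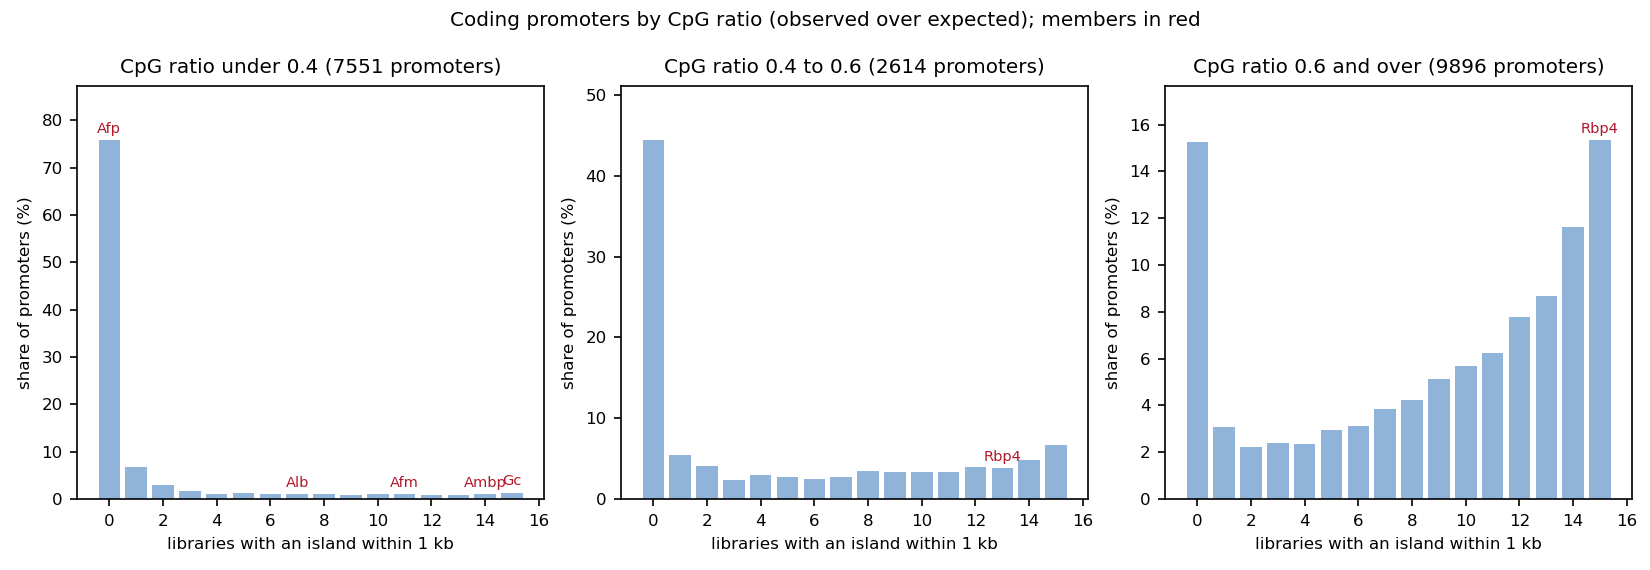
Share of coding promoters (vertical, %) by the number of libraries with an island within 1 kb (horizontal), in 3 classes of the observed over expected CpG ratio; names mark the windows of the 8 genes that were matched. In the class under 0.4, 75.9% of promoters have an island in no library and Gc and Ambp stand at 15 and 14 libraries, while Rbp4 appears with both of its windows (13 and 15 libraries).

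The matched promoters were poor in CpG with the exception of Rbp4. The observed over expected CpG ratio in the 300 bp window was 0.272 for Alb, 0.250 for Afp, 0.124 for Afm, 0 for Gc (no CpG among its 300 bases) and 0.132 for Ambp. For Rbp4 it was 0.405 at the upstream TSS (chromosome 19, 38125321) and 1.04 at the downstream TSS (38124811), where 40 CpGs, 2 GGGCGG and a TATAAA 28 bases upstream were found. Of 20061 coding promoters, 37.6% had a ratio under 0.4, and 3.30% of those had an island within 1 kb in 13 or more libraries, against 35.7% of the 9896 promoters with a ratio of 0.6 and over. Gc and Ambp were thus among the small share of CpG-poor promoters marked in nearly every liver, and Afp among the 75.9% marked in none. Counted from the RefSeq TSS, the Alb promoter had an island in 7 libraries.

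Diets were compared by the percent of the gene span covered by islands in each mouse. A gene was called where the 3 values of a diet all lay above or all below the 3 values of the other, and 7 of the 8 genes (not Afp) passed the filter of coverage in at least 2 libraries, as did 13201 coding genes in all. An exact permutation test of 3 mice against 3 cannot give a two-sided p below 0.1. The SD mice are shared by 4 of the comparisons. Since the genes were chosen with these lists known, each count is set beside the share of all tested genes called in the same direction.

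**Figure D5:**
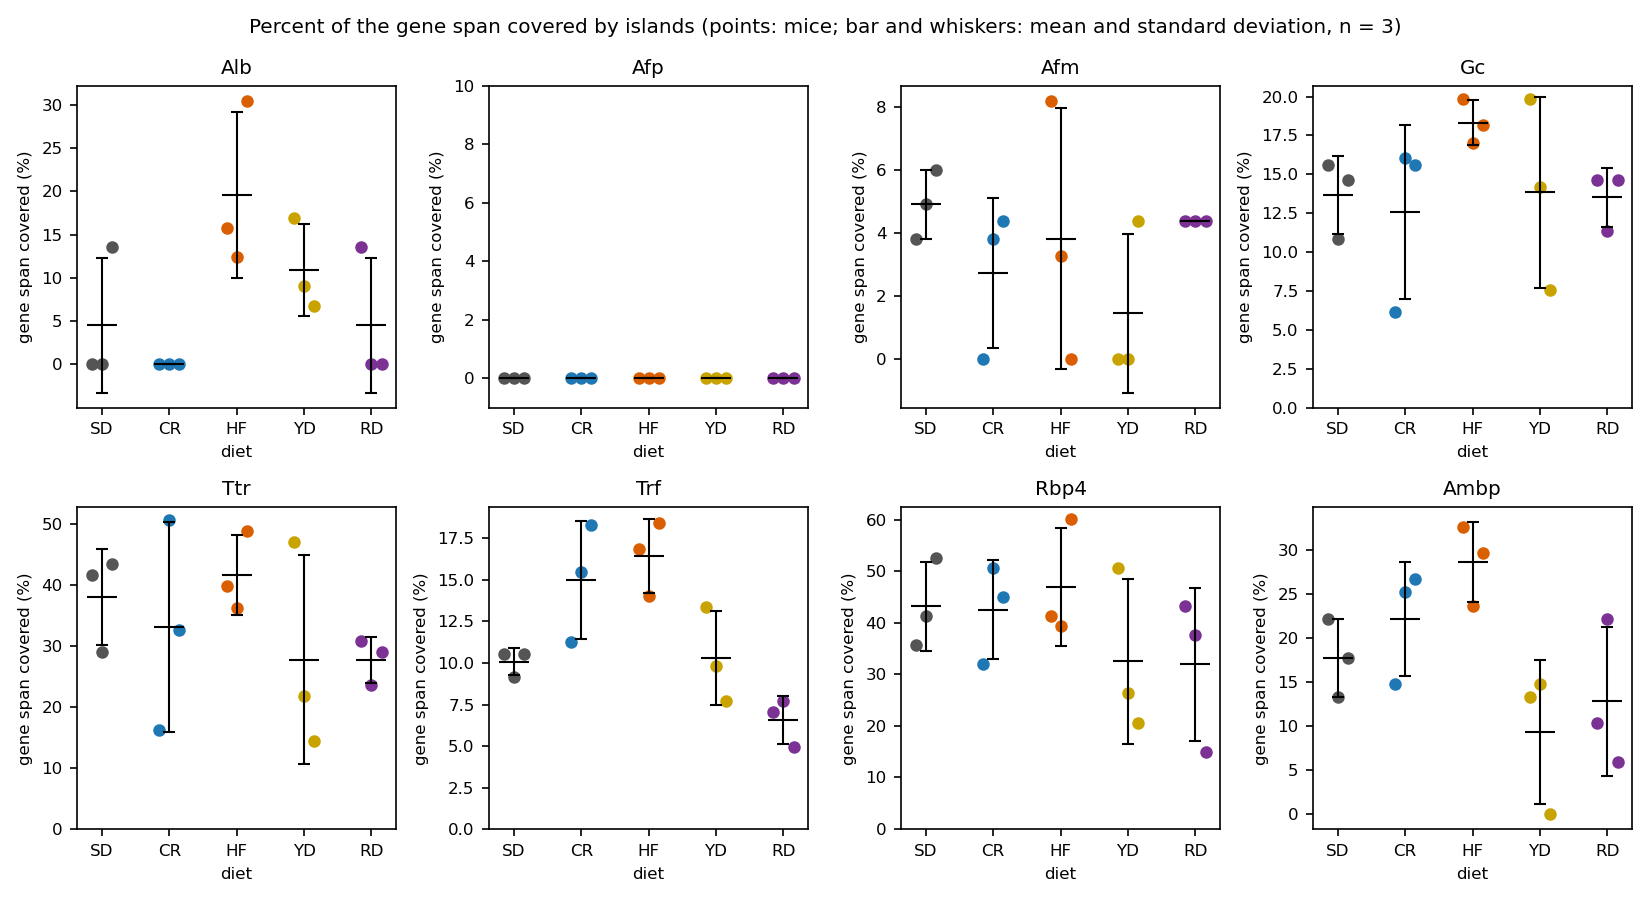
Percent of the gene span (gene body with 1 kb on each side) covered by islands, by diet. Points are single mice, and the bar and whiskers are the mean and standard deviation (n = 3). The HF points of Trf, Gc and Ambp lie above all SD points, the RD points of Trf lie below them, the CR points of Alb are all at 0 and Afp is at 0 throughout.

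In HF against SD, Gc, Trf and Ambp were higher in all 3 HF mice than in all SD mice, which also held for 17.3% of all genes. Mean coverage was 18.3 ± 1.42% against 13.7 ± 2.5% for Gc, 16.5 ± 2.22% against 10.1 ± 0.812% for Trf and 28.6 ± 4.52% against 17.7 ± 4.44% for Ambp (mean ± standard deviation, n = 3 mice each). Alb was covered at 19.6 ± 9.61% in HF and 4.52 ± 7.83% in SD, with SD_3 inside the HF range. Without the flanks of 1 kb, Trf and Ambp were called and Gc was not. For Ttr, Rbp4 and Afm the diets overlapped, at 41.7 ± 6.53 against 38.0 ± 7.90%, 46.9 ± 11.4 against 43.2 ± 8.60% and 3.82 ± 4.12 against 4.92 ± 1.09%. The median difference over the 7 genes was 4.64 points, beside 2.05 points over all genes tested. By score percentile the order was reversed, with 0.258 points over the 7 genes beside 12.6 points over all genes. These medians are descriptions, since the genes were chosen with these lists known. In the HF lists, 2 to 7 of 7 endothelial, 2 to 5 of 7 stellate and 0 to 5 of 7 Kupffer cell markers had a TSS island, beside 0 to 5, 0 to 1 and 0 in SD; their part in the result was not tested.

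In CR against SD, Trf was higher in all CR mice (15 ± 3.54 against 10.1 ± 0.812%), as were 5.58% of all genes. CR_2 exceeded the SD mice only with its second Trf island, since its TSS island was as wide as those of SD_1 and SD_3. The gene was not called when the same number of islands was taken from every list. Alb went from 4.52 ± 7.83% in SD to 0 in CR, where the ranges met at 0 because SD_1 and SD_2 had no island either. Gc, Ttr, Rbp4, Ambp and Afm overlapped between these diets, with differences of -1.10, -4.83, -0.63, 4.44 and -2.19 points.

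In YD against SD, 0 of the 7 genes were called, while 15.6% of all genes were lower and 0.0833% higher in every YD mouse. Coverage of Ttr was 27.8 ± 17.1% in YD and 38.0 ± 7.90% in SD, that of Rbp4 32.5 ± 15.97 and 43.2 ± 8.60%, and that of Ambp 9.37 ± 8.14 and 17.7 ± 4.44%. Gc (13.8 ± 6.14 and 13.7 ± 2.5%) and Trf (10.3 ± 2.84 and 10.1 ± 0.812%) had almost equal means, and Alb was 10.9 ± 5.34% in YD. YD_1 was the highest of the YD mice for Alb, Gc, Ttr, Trf and Rbp4, and without it Ttr and Rbp4 were lower in YD. Leaving out SD_3 made Alb higher in YD, leaving out SD_1 or YD_3 made Afm lower, and leaving out SD_2 made Ambp lower. By score percentile, Gc and Ambp were lower in all YD mice, as were 21.8% of 11889 genes, and the median difference was -3.95 points over the 7 genes and -22.0 points over all genes. The percentile is 0 where no island was found, and the genes were chosen with island presence and rank known. Their median is therefore a description and not a comparison with all genes.

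In RD against SD, Trf was lower in all RD mice (6.56 ± 1.46 against 10.1 ± 0.812%), as were 8.36% of all genes. Ttr was 27.8 ± 3.77% in RD and 38.0 ± 7.90% in SD with SD_2 inside the RD range, and without SD_2 it was lower too. Without SD_1 Afm and without RD_2 Ambp joined Trf. The means of Alb were equal at 4.52%, each from a single marked liver. In RD against YD, 0 of the 7 genes were called, while 5.26% of all genes were higher and 0.227% lower in every RD mouse. Trf (6.56 ± 1.46 and 10.3 ± 2.84%) and Alb (4.52 ± 7.83 and 10.9 ± 5.34%) had the lower mean in RD, and Afm (4.37 in each RD mouse and 1.46 ± 2.52%) the higher. Leaving out 1 library gave a call for Ttr higher (without YD_1), Afm higher and Trf lower (without YD_3), Alb lower (without RD_1) and Trf lower (without RD_2). These calls rest on fewer mice and have no share of all genes beside them.

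Over all diets, HF was set against the 12 other mice, and YD and RD together against SD and CR, with Benjamini-Hochberg adjustment over the 13201 genes. Under the exact permutation test, 0 of the 7 genes and 0% of all genes passed an adjusted p of 0.05 in either comparison. Before adjustment, p was below 0.05 for 4 of the 7 genes in HF, all higher, and for 34.2% of all genes. These were Alb (19.6 ± 9.61 against 4.99 ± 6.63%), Gc, Trf and Ambp. The genes and both comparisons were chosen with these lists known, so this count is a description and not a test of the genes. In the corn diets 0 of the 7 genes reached an unadjusted p of 0.05, beside 19.9% of all genes. By score percentile, Ambp was 39.4 ± 28.6 in the 6 corn-fed mice and 86.4 ± 10.1 in the 6 SD and CR mice, a difference of -47.1 points. It was among the 21.8% of genes lower at an unadjusted exact permutation p under 0.05, and it did not pass after adjustment. The median difference of percentiles over the 7 genes was -1.27 points, beside -20.3 points over all genes. It is likewise a description, because presence and rank of the islands were known when the genes were chosen.

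Genes that act with these carriers were counted from lists by the number of libraries with a TSS island. Among regulators of the albumin family, Hnf4a, Cebpa and Nr5a2 were marked in all 15 libraries, and Foxa1 and Zfhx3 in 8 each. Zhx2, which represses Afp after birth, had an island in 14 libraries and Zbtb20, another repressor of Afp, in 13. A link of these islands to the absence of islands at Afp was not tested.

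Around transferrin, 3 of 10 genes of iron handling were marked in all 15 libraries, the ferritin chains Fth1 and Ftl1 and the iron sensor Ireb2. Hamp, the gene of hepcidin, had an island in 3 libraries and Hfe in 6. The transferrin receptors differed, with Tfrc in 9 and Tfr2 in 12 libraries. Around Rbp4, the genes of retinol handling Rbp2 and Stra6 were marked in no library and Aldh1a1, an enzyme that makes retinoic acid, in 14. Stra6l, a liver receptor for retinol-binding protein, had an island in 10 libraries.

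Of 5 genes of vitamin D handling, Cyp27a1 was marked in all 15 libraries, and Lrp2, Cubn and Vdr in none. Among the heavy chains to which bikunin is joined, Itih2 and Itih4 were marked in 13 libraries each, and Itih1 and Itih3 in 6 each. The receptor that recycles albumin was marked at both of its chains, Fcgrt in 14 and B2m in 15 libraries. Of 16 other plasma carriers, Cp (ceruloplasmin), Selenop (selenoprotein P) and Vtn (vitronectin) were marked in all 15, and Serpina7 and Shbg, carriers of thyroxine and of sex steroids, in none.

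For each gene, the coding genes whose score percentile ran most alike over the 15 libraries were listed by Pearson r among 11888 genes, without a test, since libraries of different depth are the points. For Alb these were Slc39a4 (r = 0.764), Rgs3 (0.706) and Plekhg1 (0.645), and for Afm they were Gm4788 (0.889), Serinc4 and Hypk (0.859 each, a shared TSS island). Gc ran with Crot (0.979), Son (0.978) and Ppp1r3b (0.966), and Ttr with Aqp9 (0.928), Apoa2 (0.919) and Psmd6 (0.915). Trf was identical to Gm20425 (r = 1) and next to Hykk (0.711) and Gm45808 (0.684). Rbp4 ran with Rtp3 (0.922), Naca (0.908) and Aurkaip1 (0.901), and Ambp with Daxx (0.960), Wwtr1 (0.951) and Rbbp4 (0.950). None of the genes closest to Alb was another of the 8.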

How the data were processed

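H3K4me3 was measured in 15 liver libraries, 1 per mouse. Per the study's methods, the authors mapped 50 bp single-end reads to mm10 (bwa), kept unique reads with a MAPQ of at least 1 on the autosomes and X, and called islands in each library with SICER2 (fragment 200 bp, window 200 bp, gap 400 bp, FDR under 0.05), without pooling. The deposited score of an island is the authors' SICER score, a sum of minus natural logs of Poisson probabilities over its enriched windows. It depends on depth and was used only as a rank within a list. Read counts per island were not used here, and errors are those between mice. The depth of each library was recovered from steps of the score with an effective genome fraction of 0.74. The submitters' processing notes name BWA, SAMtools, SICER and mm10, whose versions are not given in the sources used here.

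From the lists, TSS islands (within 1 kb of any TSS), score percentiles (0 for no island) and the percent of the gene span with 1 kb on each side covered by islands were computed for all coding genes of GENCODE M21 (139486 transcripts of 53843 genes) with Python 3.11.15 (scipy 1.17.1, pandas 2.3.3, numpy 2.4.6, matplotlib 3.10.9). The main TSS was the most 5′ one of the APPRIS principal transcripts, and the usual stretch of a gene is that covered in at least 50% of its marked libraries. Diets, taken from the labels, were compared by non-overlap of 3 mice against 3 and by two-sided exact permutation tests. The scripts were tested on simulated data. Promoter windows came from RefSeq on GRCm38.p6, the same assembly as mm10, and 0 islands reached past a chromosome end.

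The 8 genes, the gene and marker lists  and the pooled comparisons were chosen with earlier results of these data known. Named were all 8 genes, list genes marked in all 15 libraries (up to 4 per list) or in the fewest (up to 2), the 3 most alike genes and the flanking genes; Dio1, Gm43449, Srprb, Gm20425 and the other list genes named were added after their values were seen. Alternatives were another TSS rule, another choice of islands, the replicate block, the name form of the library, the omission of each mouse and, chosen after seeing the data, the score percentile and any covered base of the span. Mice that share a replicate number are separate animals, and their deviations from the diet means correlated at -0.202 to 0.193 over 30 pairs. Hjv was not matched by symbol. Some genes of the lists and a motif are not reported here. Expression and body weight were not analysed here.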

Additional observations from a re-analysis of the deposited data

How the results depend on the processing

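Of the numbers of libraries with a TSS island, 43 of 48 alternative values lay within 1.5 times of the reported one. For counts of called genes, this held for 91 of 120. These include both pooled comparisons, where 0% of all genes were called in the main setting and every alternative stayed at 0. Only the counts were compared, not the genes called. In RD against SD by score percentile the count stayed at 1, with Afm called in place of Trf. Of the mean numbers of marked genes per diet 41 of 50, and of the score percentiles 15 of 16, moved by less than 1 standard deviation or not at all, and this deviation was wide for Afm, Alb and Ambp. Their median percentiles of 38.9, 49.4 and 80.2 became 17.4, 36.2 and 66.1 among islands near a TSS and 29.5, 44.2 and 61.0 by width. When an island had to overlap a TSS, Gc and Alb kept 7 libraries each, Ttr 3 and Afm 1. The mean number of marked genes then fell to 5 in HF, 4.33 in SD, 3.33 in CR and 3 in both corn diets. With the 7825 highest-scoring islands of every list, Afm kept 7 libraries and the mean in RD was 4.33, and with islands at or above the median score Afm kept 7 libraries and the means were 4.67 in RD and 5.33 in YD. With TSSs of protein-coding transcripts alone the mean in YD was 5.67. Leaving out each mouse gave means of 6.5 to 7 in HF, 6 to 6.5 in SD and in RD, 6 in YD and 5.5 to 6 in CR. Ranked by width, the median percentile of Rbp4 was 93.6.

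Of the calls on covered span, the same number of islands per list gave 2 in RD against SD, 0 in CR against SD and 1 in RD against YD, and islands at or above the median score gave 2 in RD against SD and 0 in CR against SD. Restricted to libraries named ChIP, there were 2 in CR against SD, 5 in HF against SD and 1 in RD against YD. CR and HF each held 1 such library, so these counts set 1 mouse against SD and have no spread of their own. The names of CR_1, CR_2, HF_2, HF_3 and RD_1 have the form PATChIP instead, and those of all SD and YD libraries the form ChIP. What the form stands for is not stated, and in CR, HF and RD against SD it is partly confounded with diet. With the score percentile in place of the covered span, chosen after seeing the data, the counts were 2 in YD against SD, 0 in CR against SD and 1 in HF against SD. Leaving out each mouse gave 0 to 2 calls in YD against SD, 1 to 2 in RD against SD, 1 to 2 in CR against SD, 3 to 4 in HF against SD and 0 to 2 in RD against YD. In HF against SD, Afm was called lower without HF_1 and higher with the libraries named ChIP. The replicate numbers mark different animals and did not pair the mice (5 of 30 correlations over 0.1), and a replicate block gave 1 call in YD against SD, 2 in RD against SD, 2 in CR against SD, 4 in HF against SD with Alb added and 2 in RD against YD, with a smallest p of 0.25. Both pooled comparisons stayed at 0 calls under the alternatives run. The share of all genes called was not computed under these alternatives. Apart from the smaller number of mice, the cause of these changes was not tested. Island lists hold no reads, so a difference in height within an island present in both diets was not measured.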
